A study of Saccharomyces cerevisiae with 64 samples.

Results

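The 10 genes FET3, FTR1 and FRE1 of reductive iron uptake and SIT1, ARN1, ARN2, ENB1, FIT1, FIT2 and FIT3 of siderophore uptake were followed in the polyadenylated RNA of budding yeast, Saccharomyces cerevisiae, arrested in G1. They were found by name among the 6931 entries of the authors' gene table, 1 entry a gene, and all 10 were tested there. They were chosen by these same FPKM values, with the OE groups set against no OE, so their levels and folds are given as a description and the calls among them support nothing by themselves. FET3, FTR1, SIT1 and ARN1 rose with overexpression (OE) of either forkhead factor and ARN2 rose with Fkh2 OE, whereas no call was made for FRE1, ENB1 or any of the 3 FIT genes.

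The groups were Fkh2 OE (wild type with pGAL-Fkh2), Fkh1 OE (wild type with pGAL-Fkh1) and no OE (wild type with the empty pGAL), with 2 RNA libraries each. Fkh1 and Fkh2 are forkhead transcription factors that bind gene promoters and replication origins. Every group was first blocked for 3 h by α-factor (7.5 nM) at 25 °C in medium with 2% raffinose. With the block kept on, 2% galactose was then present for 2 h, which turns on the galactose promoter. Cells were selected beforehand for plasmids as needed, and the labels name no addition or removal of iron. The table gives 1 combined FPKM (fragments scaled to transcript length and library size) a group, so no value per library and no standard deviation can be shown, and the depth per library is unknown. Whether the libraries of a group came from separate cultures is not stated, and the authors' p-values may measure technical spread alone.

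Yeast takes up iron by 2 high-affinity routes. In the reductive route, ferric reductases of the Fre family reduce iron at the cell surface, and the multicopper oxidase Fet3 oxidizes it again while the permease Ftr1 carries it into the cell. In the other route, siderophores, the iron chelates made by other microbes, are held in the cell wall by the mannoproteins Fit1, Fit2 and Fit3 and imported whole by the transporters Arn1, Arn2, Sit1 (Arn3) and Enb1 (Arn4), of which Enb1 carries enterobactin. Most of these genes are known targets of the iron-sensing activator Aft1 and its paralogue Aft2.

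Each targeted gene was highest in the group labelled with its overexpression. FKH2 stood at 2220 FPKM in Fkh2 OE, 13.3 in Fkh1 OE and 14.3 in no OE. FKH1 stood at 8.23 FPKM in Fkh2 OE, 1458 in Fkh1 OE and 20.9 in no OE. The Fkh2 OE group thus also had less FKH1 RNA than no OE (0.393 times, q = 0.000327, authors' deposited table), and the part of this in its folds was not tested. The a-mating type was checked on 6 genes of a cells (STE2, STE6, MFA1, MFA2, BAR1 and AGA2), which summed to 84065, 282305 and 108721 FPKM in Fkh2 OE, Fkh1 OE and no OE, against 87.4, 124 and 79.4 FPKM for 4 genes of α cells (STE3, MF(ALPHA)1, MF(ALPHA)2 and SAG1). The sum over the a genes was highest in Fkh1 OE, where MFA1 (121428 FPKM) and MFA2 (150574 FPKM) made up most of it. MFA1, MFA2 and STE6 were called higher there, and MFA2 and AGA2 were called lower in Fkh2 OE. Of the α genes, SAG1 and MF(ALPHA)1 were called higher in Fkh1 OE and STE3 in Fkh2 OE. Adjusted within the Fkh1 OE comparison, STE6 and MF(ALPHA)1 were not called, at adjusted p of 0.0862 and 0.06. The part of these mating type genes in the iron gene results was not tested. BAR1, the protease gene that degrades α-factor, was listed at 0 in all 3 groups.

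Of the reductive route, FET3 had 131 FPKM in Fkh2 OE, 130 FPKM in Fkh1 OE and 50.004 FPKM in no OE. Both OE groups thus stood well above the control and next to each other. The authors' deposited table gives q = 0.000327 for FET3 in either comparison with no OE, with folds of 2.61 (Fkh2 OE) and 2.59 (Fkh1 OE), and q = 0.979 between the OE groups. This q is the smallest that the authors' deposited table holds, so genes that share it cannot be ranked by it.

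FTR1, whose product forms the complex with Fet3, had 133 FPKM in Fkh2 OE, 115 FPKM in Fkh1 OE and 65.7 FPKM in no OE. Its order of groups was that of FET3, with a smaller distance to the control. FTR1 was 2.03-fold higher in Fkh2 OE (q = 0.000327) and 1.75-fold higher in Fkh1 OE (q = 0.000894) than in no OE, by the authors' deposited table. The ratio of FET3 to FTR1 FPKM was 0.979 in Fkh2 OE, 1.13 in Fkh1 OE and 0.761 in no OE.

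FRE1 encodes the main surface reductase for iron and copper and had 131 FPKM in Fkh2 OE, 180 FPKM in Fkh1 OE and 167 FPKM in no OE. It was the most abundant of the 10 per length in the control, and the Fkh2 OE value was the lowest of the 3. Neither OE group passed the test against no OE for FRE1 in the authors' deposited table (fold 0.784 and q = 0.186 for Fkh2 OE, fold 1.08 and q = 0.744 for Fkh1 OE). The ratio of FRE1 to FET3 was 1.01 in Fkh2 OE, 1.39 in Fkh1 OE and 3.35 in no OE.

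**Figure D1:**
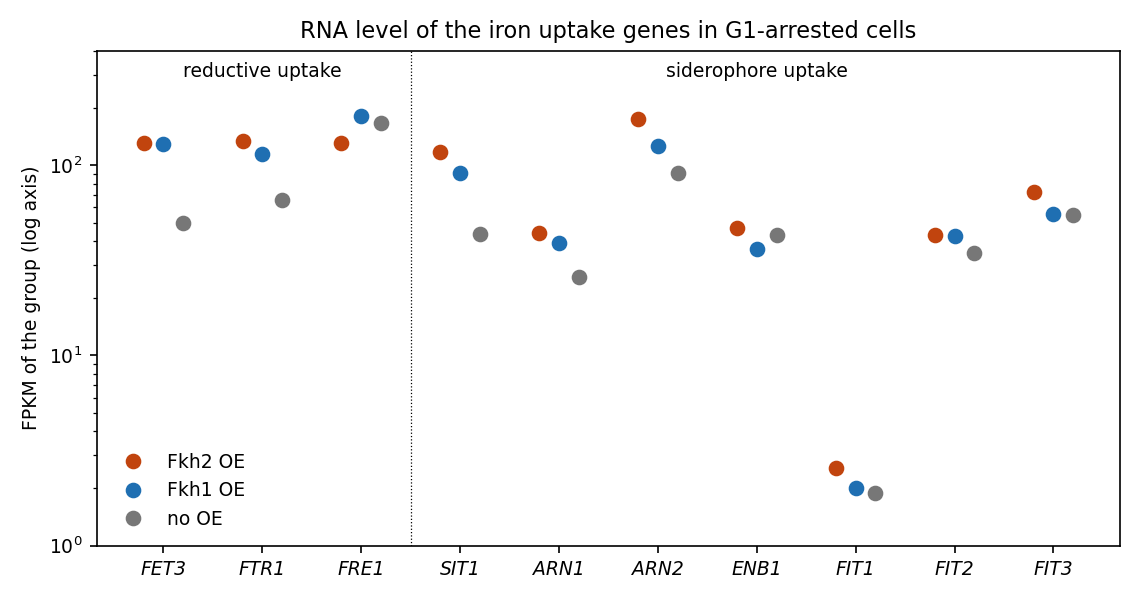
RNA level of the 10 genes as the authors' FPKM of each group on a log axis, with 1 point a group (2 libraries combined, no error available) in the order Fkh2 OE, Fkh1 OE, no OE. FET3, FTR1, SIT1, ARN1 and ARN2 lie above the control in both OE groups by 1.39-fold or more, and FIT1 lies far below the other members in every group.

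Among the siderophore transporters, SIT1, which imports ferrioxamines, had 117 FPKM in Fkh2 OE, 91.5 FPKM in Fkh1 OE and 43.6 FPKM in no OE. The control was the lowest group by more than 2-fold. In the authors' deposited table SIT1 was called in both comparisons with no OE, at 2.69-fold for Fkh2 OE and 2.10-fold for Fkh1 OE (q = 0.000327 each). The value of SIT1 in Fkh2 OE was 1.28 times that in Fkh1 OE, which did not pass the test (q = 0.178, authors' deposited table).

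ARN1, a transporter of ferrichrome-type siderophores, was lower in level, with 43.8 FPKM in Fkh2 OE, 39.2 FPKM in Fkh1 OE and 25.7 FPKM in no OE. Per the authors' deposited table, ARN1 was 1.70-fold higher in Fkh2 OE (q = 0.00214) and 1.52-fold higher in Fkh1 OE (q = 0.0159). The call for Fkh1 OE depended on how p-values were adjusted: with Benjamini-Hochberg adjustment of the deposited p-values of that comparison alone, the adjusted p of ARN1 was 0.0639.

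ARN2, which transports triacetylfusarinine C, had 176 FPKM in Fkh2 OE, 126 FPKM in Fkh1 OE and 90.8 FPKM in no OE, a graded order. It rose 1.93-fold in Fkh2 OE (q = 0.000327), while in Fkh1 OE its fold was 1.39 (q = 0.0601), both from the authors' deposited table. Set directly, Fkh2 OE had 1.39 times the Fkh1 OE level of ARN2 (q = 0.075, authors' deposited table), so a difference between the factors was not called. The table puts the overlapping entry YHL046W-A, named for the opposite strand, at the same locus with 226 FPKM in Fkh2 OE, 156 FPKM in Fkh1 OE and 84.9 FPKM in no OE. No label or header states whether counting used strand, and without it reads of ARN2 and of this entry cannot be told apart.

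ENB1, the enterobactin transporter, differed from the other 3 transporters in its values. It had 46.8 FPKM in Fkh2 OE, 36.2 FPKM in Fkh1 OE and 42.8 FPKM in no OE, with the control between the OE groups. No comparison passed for ENB1 in the authors' deposited table (fold 1.09 and q = 0.699 for Fkh2 OE, fold 0.846 and q = 0.418 for Fkh1 OE).

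The cell wall mannoproteins were not called in any comparison. FIT3 had 71.9 FPKM in Fkh2 OE, 55.6 FPKM in Fkh1 OE and 54.8 FPKM in no OE, and FIT2 had 43.1, 42.4 and 34.7 FPKM in the same groups. FIT1 was low, with 2.55 FPKM in Fkh2 OE, 2.01 in Fkh1 OE and 1.89 in no OE, and between 2.05% and 2.98% of the entries listed above 0 were lower than it in each group. Against no OE their folds lay at 1.24 (FIT2), 1.31 (FIT3) and 1.35 (FIT1) in Fkh2 OE and at 1.22 (FIT2), 1.01 (FIT3) and 1.06 (FIT1) in Fkh1 OE. The lowest q of the 3 was 0.249, for FIT3 in Fkh2 OE, in the authors' deposited table.

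Counted together, 5 of 10 members were higher in Fkh2 OE than in no OE and 0 were lower, where 13.7% of the 6208 tested entries were called higher and 17.0% lower. With Fkh1 OE, 4 of 10 members were higher and 0 lower, where 5.59% of 6212 tested entries were called higher and 5.39% lower. With adjustment of the deposited p-values within the Fkh1 OE comparison alone, 163 entries were higher and 179 lower, in place of 347 and 335, and ARN1 was not called. No member was lower at an unadjusted p under 0.05 in either comparison. Both comparisons use the same no OE libraries, so the 4 members called in both (FET3, FTR1, SIT1 and ARN1) are given side by side and not as 2 independent results. The members were chosen with these contrasts known, and nothing is read from the counts.

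The median log2 fold of the 3 reductive genes was 1.02 in Fkh2 OE and 0.81 in Fkh1 OE, and that of the 7 siderophore genes 0.43 in Fkh2 OE and 0.29 in Fkh1 OE. Over all tested entries the median was -0.03 in Fkh2 OE and 0.00 in Fkh1 OE. Of all tested entries with a fold, 98.2% had a lower log2 fold than FET3 and 98.5% a lower one than SIT1 in Fkh2 OE. In Fkh1 OE these shares were 98.8% for FET3 and 98.1% for SIT1. FET3, SIT1 and FTR1 lay above the middle 90% of entries in both comparisons, FTR1 closely so with Fkh2 OE (log2 fold 1.02 beside an upper bound of 1.01). The other 7 members lay within it in both. Summed FPKM of the 4 transporters was 383 in Fkh2 OE, 293 in Fkh1 OE and 203 in no OE, and of the 3 mannoproteins 118 in Fkh2 OE, 100 in Fkh1 OE and 91.4 in no OE.

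**Figure D2:**
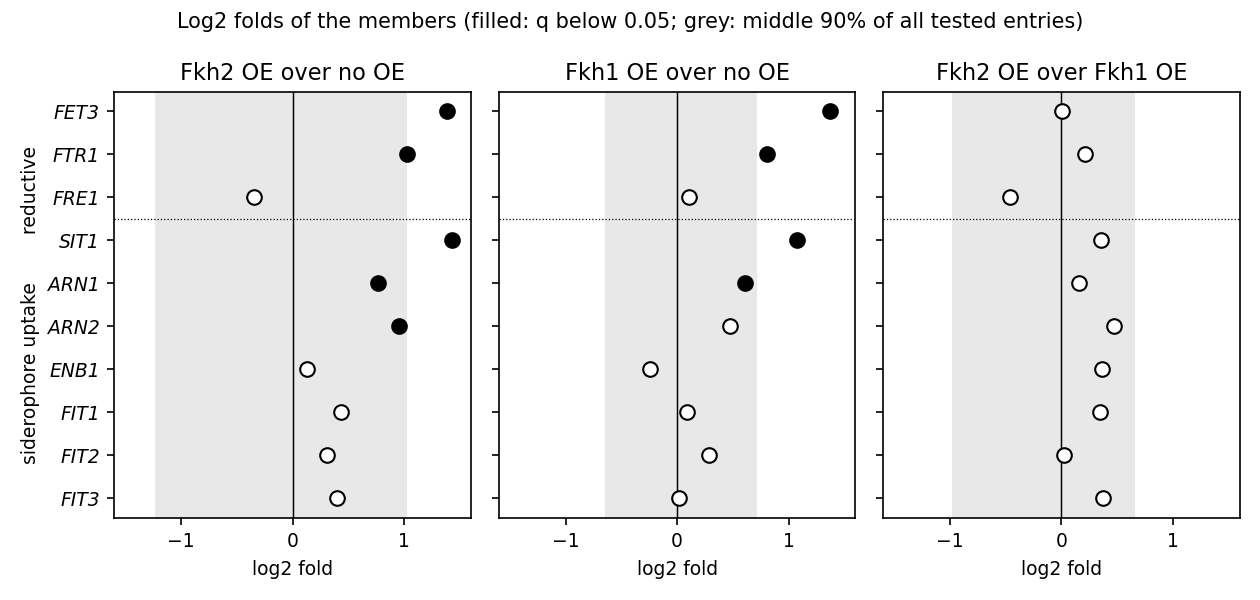
Log2 folds of the 10 genes for Fkh2 OE over no OE, Fkh1 OE over no OE and Fkh2 OE over Fkh1 OE, filled where the authors' q was below 0.05, with the middle 90% of all tested entries in grey. Filled points are seen for 5 genes with Fkh2 OE, 4 with Fkh1 OE and 0 between the OE groups. Between the OE groups the 7 siderophore genes lie right of 0, at 0.02 to 0.47, as do FET3 (0.009) and FTR1 (0.21).

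Between the OE groups, 0 of 10 members were called by the authors' Cuffdiff test, where 7.24% of 6227 entries were called higher and 11.7% lower. At an unadjusted p under 0.05 there were 1 higher (ARN2) and 1 lower (FRE1). The log2 fold of Fkh2 OE over Fkh1 OE was above 0 at 7 of 7 siderophore genes, from 0.02 (FIT2) to 0.47 (ARN2), with a median of 0.36, beside -0.04 over all tested entries. It was also above 0 at the reductive genes FET3 (0.009) and FTR1 (0.21), so at 9 of 10 members. Values this close to 0 were ordinary, since 54.6% of tested entries with a fold lay below FET3 and 55.5% below FIT2. FRE1 was at 0.727 times its Fkh1 OE level in Fkh2 OE, with q = 0.0696 in the authors' deposited table.

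The order of the members by FPKM differed between groups. In no OE, FRE1 led with 167 FPKM, followed by ARN2 (90.8), FTR1 (65.7), FIT3 (54.8) and FET3 (50.004), and the median entry listed above 0 had 60.2 FPKM. With Fkh2 OE, ARN2 led with 176 FPKM, and FTR1, FRE1 and FET3 followed within 131 to 133 FPKM, beside a median entry of 56.7 FPKM. In Fkh1 OE, FRE1 (180 FPKM) was followed by FET3 (130) and ARN2 (126), beside a median entry of 59.0 FPKM. FET3 and SIT1 thus lay below the median entry in the control and above it in both OE groups. No spread between libraries is at hand to say which neighbours in these orders differ.

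Other iron genes were read from lists of known function. Over 77 genes of iron, copper and heme handling outside the members, 13 (16.9%) rose and 7 (9.09%) fell with Fkh2 OE, and 4 (5.19%) rose and 2 (2.60%) fell with Fkh1 OE. The shares that rose are near those of all tested entries (13.7% with Fkh2 OE and 5.59% with Fkh1 OE). The shares that fell are smaller than those of all tested entries (17.0% with Fkh2 OE and 5.39% with Fkh1 OE), a difference that was not tested. Between the OE groups, 4 (5.19%) were higher and 6 (7.79%) lower in Fkh2 OE. Beside them stand 7.24% higher and 11.7% lower of all entries tested between the OE groups.

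The reductive route needs copper in Fet3. Among the copper supply genes, 28.6% rose with Fkh2 OE and 14.3% with Fkh1 OE, beside 13.7% and 5.59% of all tested entries. Of 7 copper supply genes, CCC2, the pump that loads copper onto Fet3 in the secretory pathway, rose 1.79-fold with Fkh2 OE (17.2 FPKM against 9.61 in no OE) and 1.55-fold with Fkh1 OE (14.9 FPKM against 9.61 in no OE), with q = 0.00166 and 0.0228 in the authors' deposited table. The Fkh1 OE call of CCC2 was lost with Benjamini-Hochberg adjustment within that comparison, where its adjusted p was 0.0856. MAC1, the copper-sensing activator, rose 1.53-fold with Fkh2 OE. CTR1, the copper importer, had 35.5 FPKM in Fkh2 OE, 66.7 in Fkh1 OE and 50.8 in no OE, and was called lower in Fkh2 OE than in Fkh1 OE (0.532 times, q = 0.000327, authors' deposited table).

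Of 8 other reductases, FRE7, a copper-responsive member of the family, rose with both factors and the other 7 were not called. The share that rose was thus 12.5% with either factor, beside 13.7% of all tested entries with Fkh2 OE and 5.59% with Fkh1 OE. FRE7 had 34.0 FPKM in Fkh2 OE, 28.8 FPKM in Fkh1 OE and 15.2 FPKM in no OE. Its folds were 2.23 for Fkh2 OE and 1.89 for Fkh1 OE (q = 0.000327 and 0.00141, authors' deposited table). Of 8 low-affinity and vacuolar transport genes, FET5, the vacuolar relative of FET3, rose 1.74-fold with Fkh2 OE and 1.42-fold with Fkh1 OE (q = 0.000894 and 0.0431, authors' deposited table). Adjusted within the Fkh1 OE comparison, FET5 was not called there, with an adjusted p of 0.133. CCC1, which moves iron into the vacuole, fell to 0.674 times the no OE level with Fkh2 OE. SMF3, a vacuolar exporter, was at 0.632 times its Fkh1 OE level in Fkh2 OE, which was called. Among these transport genes too 12.5% rose with either factor, and 12.5% fell with Fkh2 OE, where 17.0% of all tested entries fell.

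Of 9 regulators and sensors, 1 rose (11.1%) and 1 fell (11.1%) with Fkh2 OE, and 0 were called with Fkh1 OE. Beside them, 13.7% of all tested entries rose and 17.0% fell with Fkh2 OE, and 5.59% rose and 5.39% fell with Fkh1 OE. AFT1 itself had 27.6 FPKM in Fkh2 OE, 19.9 FPKM in Fkh1 OE and 15.2 FPKM in no OE, and rose 1.81-fold with Fkh2 OE (q = 0.00116, authors' deposited table). With Fkh1 OE its fold was 1.31 (q = 0.195, authors' deposited table), and AFT2 was not called. FRA1, whose product takes part in the inhibition of Aft1 when iron is sufficient, fell to 70.0 FPKM in Fkh2 OE, against 134 FPKM in no OE. TIS11 (CTH2), which degrades mRNAs of iron-using proteins and is itself an Aft1 target, had 19.1 FPKM in Fkh2 OE, 19.5 in Fkh1 OE and 12.9 in no OE and was not called.

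Of 5 further Aft1 and Aft2 targets, 3 rose with Fkh2 OE and 1 with Fkh1 OE. Of all tested entries, 13.7% rose with Fkh2 OE and 5.59% with Fkh1 OE. These 5 are not all of the other targets. TIS11 and the heme oxygenase gene HMX1, Aft1 targets in other lists, were not called. The other lists also hold called genes and were not sorted by Aft1 or Aft2 control, so no share over all targets is given. VHT1, the biotin importer, had 117 FPKM in Fkh2 OE, 69.7 FPKM in Fkh1 OE and 44.0 FPKM in no OE. It was called in all 3 comparisons, at 2.66-fold for Fkh2 OE and 1.58-fold for Fkh1 OE over no OE and 1.68-fold between Fkh2 OE and Fkh1 OE (q = 0.000327, 0.00832 and 0.00141, authors' deposited table). AKR1, a protein palmitoyltransferase gene, and PCL5, a cyclin gene, rose 1.73-fold and 1.44-fold with Fkh2 OE.

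**Figure D3:**
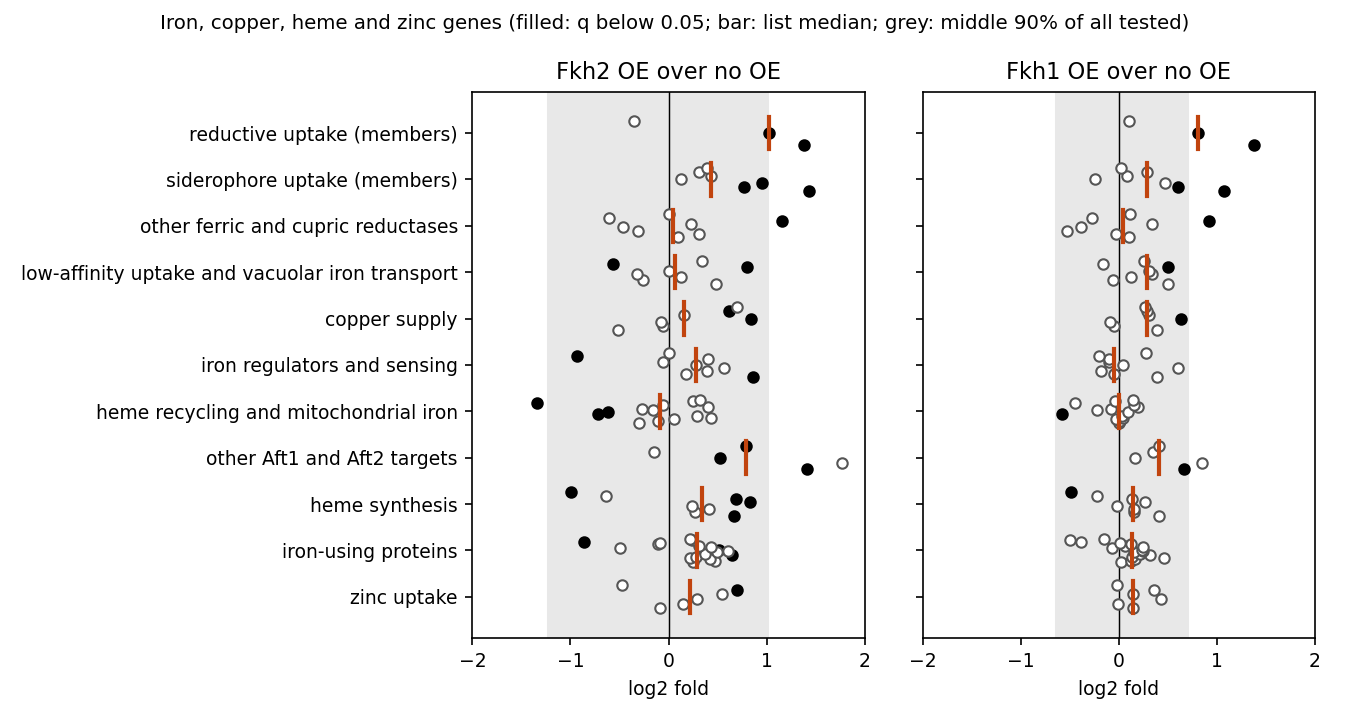
Log2 folds of the members and of genes in 9 lists of iron, copper, heme and zinc handling for Fkh2 OE (left) and Fkh1 OE (right) over the same no OE group, filled where the authors' q was below 0.05, with list medians as bars and the middle 90% of all tested entries in grey. The 3 calls of the heme recycling and mitochondrial iron list lie left of 0 with Fkh2 OE, and the 3 reductive members include FRE1 near 0.

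Genes that use iron and genes of zinc handling were read beside the shares of all tested entries. With Fkh2 OE 13.7% of these entries rose and 17.0% fell, and with Fkh1 OE 5.59% rose and 5.39% fell. Of 14 genes of heme recycling and mitochondrial iron, 3 (21.4%) fell and 0 rose with Fkh2 OE, where 17.0% of all tested entries fell. The 3 were ISA1, ISD11 and ISU1, which act in iron-sulfur cluster assembly. ISD11 was also called lower with Fkh1 OE (0.671 times no OE), but not with adjustment within that comparison (adjusted p 0.0943). ISA1 and ISU1 were called lower in Fkh2 OE than in Fkh1 OE as well. ISA1 had 49.0 FPKM in Fkh2 OE, 91.3 FPKM in Fkh1 OE and 124 FPKM in no OE. HMX1, the heme oxygenase gene and an Aft1 target, had 263 FPKM in Fkh2 OE, 324 in Fkh1 OE and 324 in no OE. Of 8 heme synthesis genes, HEM1, HEM12 and HEM13 rose with Fkh2 OE, at 1.59-fold, 1.78-fold and 1.61-fold. HEM15, the ferrochelatase that inserts iron into heme, fell to 0.501 times no OE with Fkh2 OE and to 0.713 times with Fkh1 OE, where adjustment within the comparison ended the call, at an adjusted p of 0.137. Of 18 iron-using proteins, RIP1 and LEU1, both iron-sulfur proteins, rose 1.56-fold and 1.43-fold with Fkh2 OE. CTA1, the peroxisomal catalase, fell to 0.549 times no OE with Fkh2 OE, and 0 of the 18 were called with Fkh1 OE. CTT1 of the same list was called higher in Fkh2 OE than in Fkh1 OE (1.67-fold, q = 0.00737, authors' deposited table). Of 6 zinc transport and regulation genes, ZRG17 rose 1.63-fold with Fkh2 OE and none was called with Fkh1 OE.

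Genes of the pheromone response and of the cell cycle were read as well. Over all tested entries, 13.7% rose and 17.0% fell with Fkh2 OE, and 5.59% rose and 5.39% fell with Fkh1 OE. Of 6 such genes (FUS1, AGA1, FIG1, KAR4, FAR1 and PRM1), 3 fell with Fkh2 OE and 0 were called with Fkh1 OE, and their sum was 6069 FPKM in Fkh2 OE, 9310 in Fkh1 OE and 8973 in no OE. FIG1, a gene of mating, had 662 FPKM in Fkh2 OE, 1704 FPKM in Fkh1 OE and 1477 FPKM in no OE. Of 6 cell cycle genes (HTA1, HTB1, CLB2, CLB5, CLN2 and CDC5), 2 fell and 1 rose with Fkh2 OE and 0 were called with Fkh1 OE. The histone genes HTA1 and HTB1 fell, to 0.544 and 0.589 times no OE, and CLB2 rose 1.79-fold (q = 0.00415, authors' deposited table). The sum of the 6 was 1812 FPKM in Fkh2 OE, 3583 in Fkh1 OE and 3147 in no OE. Most of it came from the histone genes, with 883 (HTA1) and 849 (HTB1) FPKM in Fkh2 OE. None of the members is in these lists, and the part of the arrest state in the folds of the iron uptake genes was not tested.

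A feature that the choice of members did not use was position. All coordinates are of build R64. FET3 lies at chromosome XIII 388822 to 390732, FTR1 at V 460526 to 461740 and FRE1 at XII 568567 to 570627, at 389, 115 and 508 kb from the nearest chromosome end. The 7 siderophore genes all lie within 35 kb of an end, as do 7.85% of the 6889 nuclear entries. They are ARN2 (VIII 8351 to 10213) and ARN1 (VIII 19088 to 20971) at the left end of chromosome VIII, ENB1 (XV 19491 to 21311) at the left end of XV, and SIT1 (V 27657 to 29543) at the left end of V. FIT1 (IV 1503314 to 1504900) is at the right end of IV, and FIT2 (XV 1059531 to 1059992) and FIT3 (XV 1060441 to 1061055) are neighbours at the right end of XV, with 448 bases between them. The distance was chosen after the positions were seen.

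Shares of calls were also read for the entries near chromosome ends. Of 394 tested entries within 35 kb of an end, 11.7% were called higher and 11.4% lower with Fkh2 OE, and 4.31% higher and 3.55% lower with Fkh1 OE, shares below those of all tested entries. Between the OE groups 5.82% of 395 such entries were higher and 7.59% lower in Fkh2 OE. All 7 siderophore genes lie within this distance, which was chosen after the positions were seen. It therefore cannot separate the called ARN1, ARN2 and SIT1 from the uncalled ENB1, FIT1, FIT2 and FIT3. The part of position in the folds of the members was not tested. The reductases FRE3 (XV 1055545 to 1057680) and FRE5 (XV 1061564 to 1063648) flank the FIT2 and FIT3 pair. FRE3 had 28.7 FPKM in Fkh2 OE, 22.7 in Fkh1 OE and 23.1 in no OE, FRE5 had 16.2, 17.2 and 22.4 FPKM in these groups, and neither was called. FRE3, FIT2, FIT3 and FRE5 thus held 0 calls in the comparisons with no OE. The lowest q among them there was 0.0963 (FRE5, Fkh2 OE, authors' deposited table). A further entry between FRE3 and FIT2, YOR381W-A, had 13.0 FPKM in Fkh1 OE and 0 in Fkh2 OE and no OE, and was not called against no OE.

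Genes outside the lists were ranked by how close their 2 log2 folds over no OE came to the members' medians, among 5523 entries with 1 name and a mean of at least 10 FPKM. Nearest to the reductive median were SNR70, YLR264C-A, SLM6, RPA190 and YEL034C-A, at distances of 0.02 to 0.05. Nearest to the siderophore median were AQY1, YPL229W, EFG1, NPT1 and BDS1, at distances of 0.01 to 0.02. RPA190, the largest subunit of RNA polymerase I, had 51.4 FPKM in Fkh2 OE, 42.6 in Fkh1 OE and 24.6 in no OE. AQY1, a water channel gene, had 37.3 FPKM in Fkh2 OE, 33.4 in Fkh1 OE and 27.3 in no OE. With 3 group values a gene, such closeness is easily met and says nothing of shared control.

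Replication at these loci was read from the deposited BrdU signal, where a thymidine analogue taken up into new DNA is pulled down. Each column combines the libraries of a group (3 immunoprecipitated libraries a group in hydroxyurea, 2 a pulse in the time course), so these values have no replicate check. BrdU was given at 400 µg/mL in hydroxyurea and at 800 µg/mL in the time course. Cells in hydroxyurea (0.2 M for 60 min), which halts forks near early origins, gave members on both sides of the median gene. The signal in Fkh2 OE was 0.00380 (FRE1) to 0.00900 (FIT2), in Fkh1 OE 0.00469 (FRE1) to 0.0147 (FIT2) and in no OE 0.00333 (FET3) to 0.00924 (FIT2), beside medians over all genes of 0.00469, 0.00623 and 0.00441 in the same groups. No member reached a 2-fold difference in hydroxyurea. For Fkh2 OE over no OE 2.59% of 6324 genes were higher and 5.98% lower by 2-fold, for Fkh1 OE over no OE 12.6% of 6322 were higher and 0.664% lower, and for Fkh2 OE over Fkh1 OE 0.380% of 6320 were higher and 16.2% lower. The direction between the OE groups rested on the deposited scale, since the log2 folds of all 10 members lay between -0.71 and -0.21 as deposited and between 0.39 and 0.89 with both columns scaled to the same nuclear mean.

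In cells released without drug, FIT2 and FIT3 had far more signal in the first pulse (20 to 35 min) than the other 8 members. FIT2 had 0.317 in Fkh1 OE and 0.188 in no OE, and FIT3 had 0.223 in Fkh1 OE and 0.126 in no OE. The other members lay between 0.00690 and 0.0491 in Fkh1 OE and between 0.00300 and 0.0116 in no OE, beside medians over all genes of 0.0242 in Fkh1 OE and 0.00869 in no OE. FIT2 stood above 92.3% of genes in Fkh1 OE and above 94.0% in no OE.

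The fold of Fkh1 OE over no OE in that pulse reached 2 at 5 of 10 members (FET3, FRE1, SIT1, ENB1 and FIT1), where 60.9% of 6251 genes did and 0.160% were lower by 2-fold, and the members' median fold was 1.90 beside 2.30 over all genes. These folds rest on the deposited scale: with both columns scaled to the same nuclear mean, 0 of 10 members reached 2, and the log2 folds of 7 of 10 (FTR1, FRE1, ARN1, ARN2, ENB1, FIT2 and FIT3) turned below 0. The scaled log2 folds lay between -0.99 (ARN1) and 0.99 (FIT1), so the direction at those 7 genes is not settled by these columns. In the pulse of 30 to 45 min it reached 2 at FET3 (2.03) and SIT1 (2.38), where 44.0% of 6273 genes did and 0.0797% were lower by 2-fold, and it was 0.578 at ARN2. In the pulse of 40 to 55 min 0 of 10 members did, where 9.41% of 6314 genes did and 0.0950% were lower by 2-fold, and the folds lay between 0.756 (FIT2) and 1.81 (FTR1). The RNA calls and the BrdU folds come from different cell cycle stages, G1 and S phase. As deposited, the first-pulse folds of the members called in RNA with Fkh1 OE were 3.09 (FET3), 1.14 (FTR1), 2.89 (SIT1) and 1.07 (ARN1), and those of the other 6 lay between 1.13 (ARN2) and 4.24 (FIT1).

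**Figure D4:**
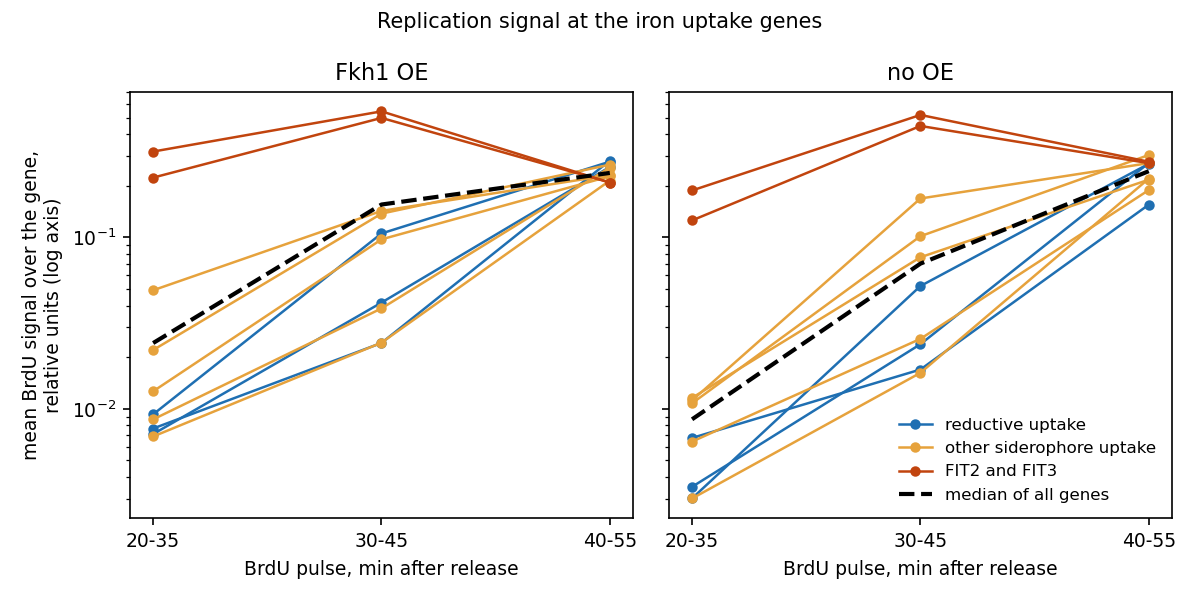
Mean deposited BrdU signal over each of the 10 genes in 3 pulses after release, for Fkh1 OE (left) and no OE (right), on a log axis in relative units, with the median over all genes dashed. FIT2 and FIT3 lie above the other members in the first 2 pulses in both groups, and in the last pulse all members lie between 0.209 and 0.280 in Fkh1 OE and between 0.155 and 0.302 in no OE.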

How the data were processed

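RNA of 3 groups of G1-arrested cells (2 libraries each) was deposited by the authors as FPKM, combined to 1 value a group for each gene. P-values and q-values of 3 pairwise comparisons were deposited by the authors beside them. Cuffdiff column names stand in the table per the file headers. The submitters' processing notes name TopHat2, Cufflinks, Cuffdiff and build R64 without versions. BrdU signal was deposited by the authors as 1 combined column a group in 50 bp bins, in relative units. No label or header states how libraries were combined or scaled, or over which tests q was adjusted. The smallest Cuffdiff p, 5e-05, had q = 0.000327 in all 3 comparisons. Adjusted within a comparison it gave 0.000392 (Fkh2 OE), 0.00285 (Fkh1 OE) and 0.00127 (between the OE groups), so the deposited q is smaller. The deposited q also differed by up to 0.0787 from Benjamini-Hochberg adjustment pooled over the 18647 tests of the 3 comparisons.

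Folds were computed from the deposited FPKM without a pseudocount, since the deposited fold column runs the other way and is damaged in part. Called means q below 0.05. With combined values no test could be fitted here, and calls are the authors'. Named were all members, FKH1 and FKH2, the called genes of each list (up to 3 with the largest fold, HEM1 added after its value was seen, as were AFT2, TIS11, HMX1, FRE3 and FRE5, which were not called) and the 5 nearest genes. The members and lists were chosen with earlier results of these data known. All 10 members matched the R64 gene table. BrdU signal was averaged over each gene, and a 2-fold difference was counted. The adjustment and window steps were tested on simulated data. Python 3.11.15, pandas 2.3.3 and numpy 2.4.6 were used. The tables of the double mutant and of RNR3 OE were not used here. Sequences of the members were not used here.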

Additional observations from a re-analysis of the deposited data

How the results depend on the processing

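No paired analysis was possible because the table gives 1 combined value a group, and for the same reason no replicate could be left out. Promoter motifs and protein identities were not run, since no sequence was used here. Pseudocounts of 1 and 10 and centring on the median of all entries left the direction of all 30 member folds, as did the medians of both routes. Asking for at least 2-fold besides q below 0.05 left 3 members higher with Fkh2 OE (FET3, FTR1 and SIT1) and 2 with Fkh1 OE (FET3 and SIT1). Of the other iron, copper and heme genes it left 2 higher and 1 lower with Fkh2 OE, 0 higher and 0 lower with Fkh1 OE, and 0 higher and 0 lower between the OE groups; of all entries 222 and 438 with Fkh2 OE, 24 and 59 with Fkh1 OE, and 34 and 149 between the OE groups. At q below 0.1 there were 1 member higher (ARN2) and 1 lower (FRE1) between the OE groups, and 11 other iron genes lower with Fkh2 OE. At q below 0.01 all entries had 566 higher with Fkh2 OE, 154 higher and 168 lower with Fkh1 OE, and 186 higher and 441 lower between the OE groups, and of the other iron genes 2 were higher and 0 lower with Fkh1 OE and 2 higher between the OE groups. Adjusting within the Fkh1 OE comparison alone left 163 entries higher and 179 lower, and 2 other iron genes higher (FRE7 and VHT1) and 0 lower; between the OE groups it ended the calls of HEM13 and HEM15. Fewer calls follow from the stricter rules by construction. For BrdU, 1 kb on either side gave 1 member higher by 2-fold with Fkh1 OE in hydroxyurea, and 3 and 1 in the pulses to 35 and 45 min. With 5 kb on either side, 2 members in the pulse to 35 min were higher, and in hydroxyurea 2 were lower with Fkh2 OE and 1 lower in Fkh2 OE than in Fkh1 OE. Scaled to the same nuclear mean, 1 member was higher with Fkh2 OE in hydroxyurea, 0 were higher in the pulses to 35 and 45 min and 1 was lower in the pulse to 45 min, and log2 folds changed sign at 7 members in the pulse to 35 min, 3 in the pulse to 45 min and 0 in the pulse to 55 min. In the pulse to 35 min they turned to -0.99 (ARN1), -0.92 (ARN2), -0.91 (FTR1), -0.34 (FIT2), -0.26 (FIT3), -0.069 (FRE1) and -0.060 (ENB1). In hydroxyurea the sign changed at 2 members for Fkh2 OE over no OE, 4 for Fkh1 OE over no OE and 10 for Fkh2 OE over Fkh1 OE. The cause was not tested.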
